A study of Mus musculus with 19 samples.

Results

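Cxcl9, Cxcl10 and Cxcl11 are chemokine genes that lie side by side on mouse chromosome 5, and the accessible chromatin around them was described from an ATAC-seq peak list of macrophages. ATAC-seq marks open DNA by the insertion of sequencing adapters by Tn5 transposase. The regions were chosen by position alone: every peak with a base between 92450000 and 92540000 on chromosome 5 of the mm39 build. This window held 27 of the 140383 peaks in the list. All 3 genes are read from the minus strand, so higher coordinates are upstream.

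The cells were primary bone marrow-derived macrophages from Smarca5-/- mice (Smarca5lox/lox Csf1r-Cre, 10 samples) and from wild-type mice that also carry Csf1r-Cre (9 samples). Smarca5 encodes the ATPase of ISWI chromatin remodelling complexes, and the Csf1r promoter drives Cre in cells of the myeloid lineage. Both genotypes were differentiated for 7 days with daily 4-hydroxytamoxifen. Each genotype was left untreated, given 10 ng/ml LPS for 1 or 2 h, or given 100 U/ml interferon beta for 1 or 2 h, with 2 samples in each group except wild-type cells after 1 h of interferon beta, which had 1. The list gives a single set of values per peak, pooled over these samples, and names none of them. No effect of genotype, LPS or interferon beta could therefore be measured, no replicate error can be given and the depth of each sample is unknown.

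CXCL9, CXCL10 and CXCL11 are secreted proteins that attract activated T cells and natural killer cells through the receptor CXCR3. Interferons induce all 3 genes through STAT and IRF factors that bind interferon-stimulated response elements and gamma-activated sites. Cxcl10 also responds directly to LPS, through NF-kB and IRF3 and through interferon beta that the macrophage itself releases, whereas Cxcl9 is known mainly as a target of interferon gamma. RefSeq's gene table for C57BL/6J lists Cxcl9 and Cxcl10 as protein-coding and Cxcl11 as a transcribed pseudogene. The strain of the mice was not given in the labels. In the gene order of that table Sdad1 precedes Cxcl9, Cxcl10 and Cxcl11 both lie within the span of Art3, and Nup54 follows Art3.

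RefSeq promoter sequences were in hand for 2 of the 3 genes, Cxcl9 and Cxcl10. The 250 bases before each gene start are shown because the strongest calls for their fold in the window lie at Cxcl10. The Cxcl10 start peak covers most of this stretch if the RefSeq promoter begins at the gene end given for mm39. Both promoters are on the minus strand and their coordinates are those of GRCm38.p6, not of the peak list: chr5:92348890-92349139 for Cxcl10 and chr5:92328080-92328329 for Cxcl9. They are written 5′ to 3′, with the last base next to the gene start. Capitals mark, in this order, a match to the core of an interferon-stimulated response element (GAAA, any 2 bases, GAAA), 2 matches to an NF-kB pattern (GGG, any 3 bases, TTCC) and a match to AP-1 (TGACTCA, found here on the other strand).
Cxcl10: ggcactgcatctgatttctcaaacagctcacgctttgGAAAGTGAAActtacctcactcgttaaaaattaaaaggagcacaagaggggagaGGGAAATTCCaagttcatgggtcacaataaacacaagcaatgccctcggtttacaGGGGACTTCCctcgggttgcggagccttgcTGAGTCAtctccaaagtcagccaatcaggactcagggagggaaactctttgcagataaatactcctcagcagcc
Cxcl9: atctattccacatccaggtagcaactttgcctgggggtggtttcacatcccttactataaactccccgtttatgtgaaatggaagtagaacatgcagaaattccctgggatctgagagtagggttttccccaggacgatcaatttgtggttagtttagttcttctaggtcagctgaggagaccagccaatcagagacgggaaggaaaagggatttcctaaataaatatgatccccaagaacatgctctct

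In Cxcl10 the interferon-stimulated response element match covered bases -213 to -204 from the gene start, the NF-kB matches -159 to -150 and -104 to -95, and the AP-1 match -74 to -68. Over 32851 RefSeq promoters of 300 bases each, searched on both strands, 3.44% held the interferon-stimulated response element pattern and 5.20% the AP-1 pattern. Both together occurred in 0.186% of promoters. This pairing was not planned and joins the listed patterns that matched Cxcl10, so its share is only a description. The NF-kB pattern was chosen after the sequences had been seen and occurred in 5.56% of promoters. A stricter NF-kB pattern, GGG with any 2 bases and TTTCC, occurred in 1.63% and matched neither gene. The gamma-activated site pattern TTCNNNGAA occurred in 8.30% and also matched neither gene. In Cxcl9 the upstream bases shown held no match to any of these 5 patterns, and the only match in its 300 bases was to AP-1, at bases 32 to 38 after the start. None of the 4 matches in Cxcl10 overlaps another. A match describes letters and not a bound site, and the absence of a match concerns only this window and these letters.

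A set of 5 accessible regions lay at Cxcl10, the gene for the chemokine also called IP-10: 4 had bases in the gene and 1 lay 120 bp past its 3′ end. They are called the Cxcl10 peaks here. Counting from the higher coordinate, the first was the start peak at 92496660 to 92496973, 314 bp wide, with a fold enrichment of 9.21 and a −log10 q of 293. Fold is the enrichment over local background that MACS2 writes for a peak, and −log10 q is the strength of the call after correction for multiple testing. Fold and −log10 q are the authors' values. Both appear to be averages in this list, since their long decimals resemble those of the scores, described further below. How many values each averages appears to differ between peaks and is not given. Cxcl10 spans 92494497 to 92496748, so the start peak reached 225 bp upstream of the gene and 89 bp into it, and its summit lay 44 bp upstream of the start. If the RefSeq promoter begins at the same base as this gene end, all 4 motif matches printed above lie within the start peak. The AP-1 match was then nearest to the summit, 24 bp away, and the interferon-stimulated response element match was farthest, 160 bp away and 12 bp inside the upstream edge of the peak.

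Within the gene body lay 3 further peaks. The one at 92495809 to 92496297 was 489 bp wide, with a fold of 6.10 and a −log10 q of 269. A narrower peak of 125 bp followed at 92495494 to 92495618, with a fold of 4.97 and a −log10 q of 196. The peak at 92494890 to 92495281 was 392 bp wide, with a fold of 4.98 and a −log10 q of 181. The last of the set, the one past the 3′ end, was at 92493888 to 92494376 and had a fold of 4.67, a −log10 q of 145 and a width of 489 bp. The summits of these 4 peaks, in the order given, lay at 92495969, 92495534, 92495201 and 92494217. The −log10 q was thus highest at the start of Cxcl10 and lower at each successive peak toward and past its 3′ end. Fold was also highest at the start and lowest past the 3′ end, with the 2 middle values of 4.98 and 4.97 nearly equal. Gaps between the 5 peaks were 190 to 513 bp, and peaks covered 1095 of the 2252 bp of the gene, or 48.6%.

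**Figure D1:**
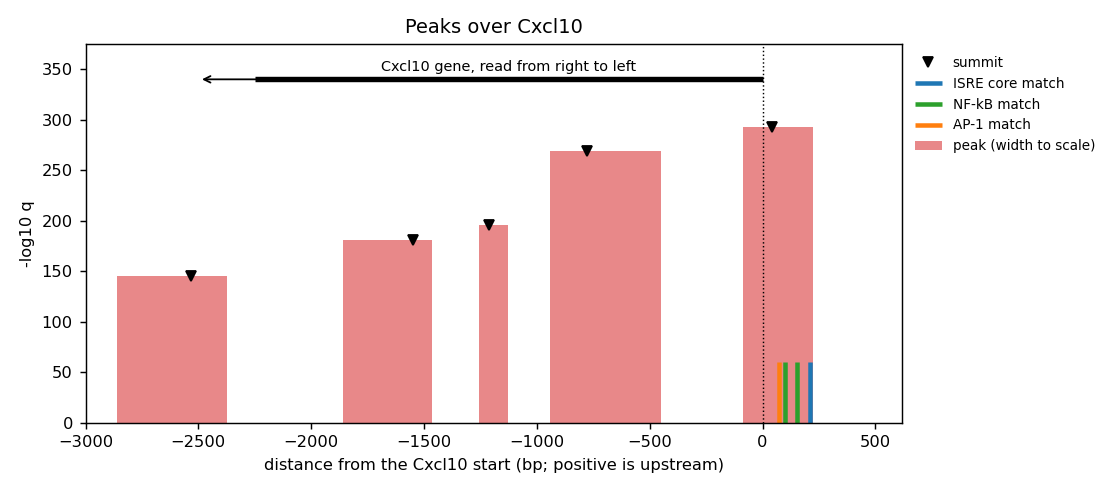
Peaks over Cxcl10, drawn to scale by distance from the gene start (horizontal axis, bp, positive upstream) with −log10 q as height; black triangles are summits and short coloured lines mark pattern matches. The start peak is the highest at 293, and heights are lower at each peak toward the 3′ end, down to 145. All 4 matches lie in the start peak if the RefSeq promoter begins at the same base as the gene end.

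The Cxcl10 peaks combined a strong call with a low fold. Each peak of the list was set beside the peaks of like fold, in 100 equal bins, by dividing its −log10 q by the median of its bin. The 5 Cxcl10 peaks had ratios of 10.1 at the start peak, 17.2, 12.5 and 11.6 in the gene body and 12.0 past the 3′ end. Their median was 12.0, against 1.00 over the whole list. Within the list their percentiles were 99.4 to 99.9 for this ratio, 8.16 to 45.7 for fold and 79.3 to 89.5 for −log10 q. In the whole list, 27327 peaks had a fold of at most 6.10, the highest among the 4 weaker Cxcl10 peaks. Their median −log10 q was 14.4, and 120 of them, or 0.439%, reached a −log10 q of 145, the 4 Cxcl10 peaks included. Both limits are values of these 4 peaks, so all 4 pass by construction and the share is only a description. The ratio was likewise chosen after the data had been seen. Neighbouring peaks at the same gene share reads and local background, so the 5 values are not independent of each other.

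**Figure D2:**
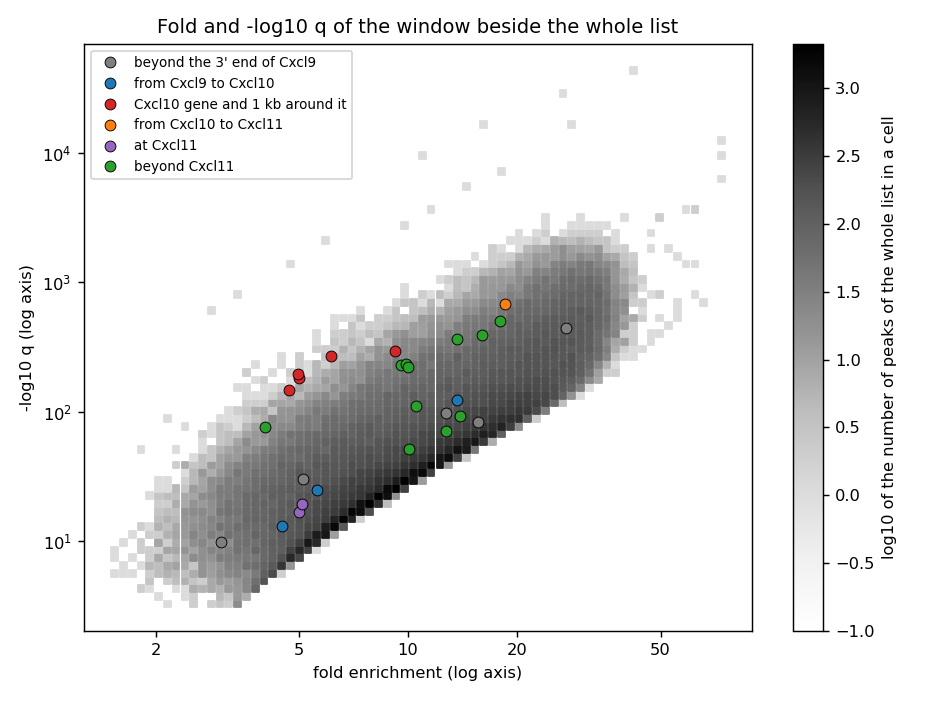
Fold enrichment (horizontal, log axis) against −log10 q (vertical, log axis); grey cells are the 140383 peaks of the list, darker where there are more, and coloured points are the 27 peaks of the window by position. The 5 Cxcl10 peaks, at folds of 4.67 to 9.21, lie high in the grey cloud for their fold. The start peak, at 9.21, lies inside the cloud, and the others lie near its upper edge. Both Cxcl11 peaks have a low −log10 q but lie near the middle of the cloud for their fold, with ratios of 1.07 and 1.24.

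Upstream of Cxcl10, on the side of Cxcl11, a single peak at 92501398 to 92501771 had the highest −log10 q of the window, 676, at percentile 97.0 of the list. Its fold of 18.5 was the second highest of the window and 2.01 times that of the Cxcl10 start peak. Its width was 374 bp, and its summit lay 4887 bp upstream of the Cxcl10 start. Its −log10 q was 5.28 times the median at like fold, below the ratio of each of the 5 Cxcl10 peaks. This region belongs to the stretch between Cxcl10 and Cxcl11, and the list does not tie it to either gene.

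At Cxcl11, whose position is known here only as near 92507000, both peaks within 500 bp were weak within the list, at percentiles of 15.6 and 20.2 for −log10 q. Which end of the gene this position marks is not given, so no peak is assigned to the promoter of Cxcl11. Higher peaks are called beyond Cxcl11 by this position alone. A peak of 249 bp at 92506851 to 92507099 covered that position, with a fold of 5.00 and a −log10 q of 16.7. It touched a second peak of 154 bp at 92507100 to 92507253, with a fold of 5.08 and a −log10 q of 19.4. Their summits were at 92506980 and 92507113. Their ratios to peaks of like fold were 1.07 and 1.24, close to the 1.00 of the whole list. The Cxcl11 pair and the 3 lowest Cxcl10 peaks therefore had nearly equal folds, from 4.67 to 5.08, while −log10 q was 145 to 196 for the Cxcl10 peaks and 16.7 to 19.4 at Cxcl11. No replicate spread is available against which to judge this difference.

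At Cxcl9, whose 3′ end lies at about 92469200, few peaks were present and the nearest was weak. The first peak above that end began 445 bp from it, at 92469645 to 92470003, with its summit at 92469901, a width of 359 bp, a fold of 4.47 and a −log10 q of 13.0. After it came a stretch without a peak up to 92479117. The start of Cxcl9 in mm39 was not used here, so no peak is assigned to its promoter. The next peak, at 92479117 to 92479245, had a fold of 5.59 and a −log10 q of 24.7. A wider peak followed at 92480210 to 92480760, the widest of the window at 551 bp, with a fold of 13.7 and a −log10 q of 123. These 3 peaks had ratios of 0.950 to 1.98, and the list ties none of them to a gene. The longest stretch without a peak in the window, 13127 bp, separated the widest peak from the Cxcl10 set.

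Past the 3′ end of Cxcl9, toward Sdad1 in the gene order, lay 5 peaks, which the list does not tie to either gene. The peak at 92457566 to 92458003 had the highest fold of the window, 27.3, at percentile 94.8 of the list, with a −log10 q of 444, a width of 438 bp and a summit at 92457870. Its ratio was only 1.29, so this peak had a much higher fold than the Cxcl10 start peak but a −log10 q only a little above the median for its fold. A peak of 170 bp at 92466133 to 92466302, with its summit at 92466198, had a fold of 15.7, a −log10 q of 83.2 and a ratio of 0.951. Its neighbour at 92466523 to 92466659 had a fold of 12.7 and a −log10 q of 97.9. The 2 others had folds of 3.03 and 5.11. The value of 3.03, at 92456646 to 92456776, was the lowest of the window in both fold and −log10 q (9.89).

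Beyond Cxcl11, toward the 3′ part of Art3 and Nup54 in the gene order, lay 11 peaks with folds of 4.03 to 18.0. None of them is tied to a gene by the list. The strongest was at 92522495 to 92522977, with its summit at 92522829, a width of 483 bp, a fold of 18.0, a −log10 q of 503 and a ratio of 4.61. The next by −log10 q was at 92517025 to 92517253, 229 bp wide with its summit at 92517118, with a fold of 16.1, a −log10 q of 393 and a ratio of 4.22. A touching pair at 92515851 to 92515918 and 92515919 to 92516098 had folds of 9.59 and 9.85 and −log10 q of 229 and 234. The peak at 92529644 to 92529897, the sixth highest by fold, was 254 bp wide with its summit at 92529835, and had a fold of 13.9, a −log10 q of 91.8 and a ratio of 1.40. All 11 had a −log10 q above the list's median of 45.3, and 9 had a fold above the list's median of 9.85.

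High −log10 q for the fold was not limited to Cxcl10 within the window. By position, the 11 peaks beyond Cxcl11 had ratios of 1.33 to 7.19, with a median of 4.61. The 5 peaks past the 3′ end of Cxcl9 had ratios of 0.640 to 2.42, with a median of 1.29. A ratio of at least 5 was found in 10 of the 27 peaks of the window, or 37.0%, against 4.19% of the whole list. A ratio of at least 10 was found in 5 of the 27 peaks, 4 with bases in Cxcl10 and 1 past its 3′ end, against 0.618% of the list. The ratio was chosen after seeing the data, and the limit of 10 lies just below the lowest Cxcl10 ratio. All 5 Cxcl10 peaks therefore pass by construction, and these shares are only descriptions.

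**Figure D3:**
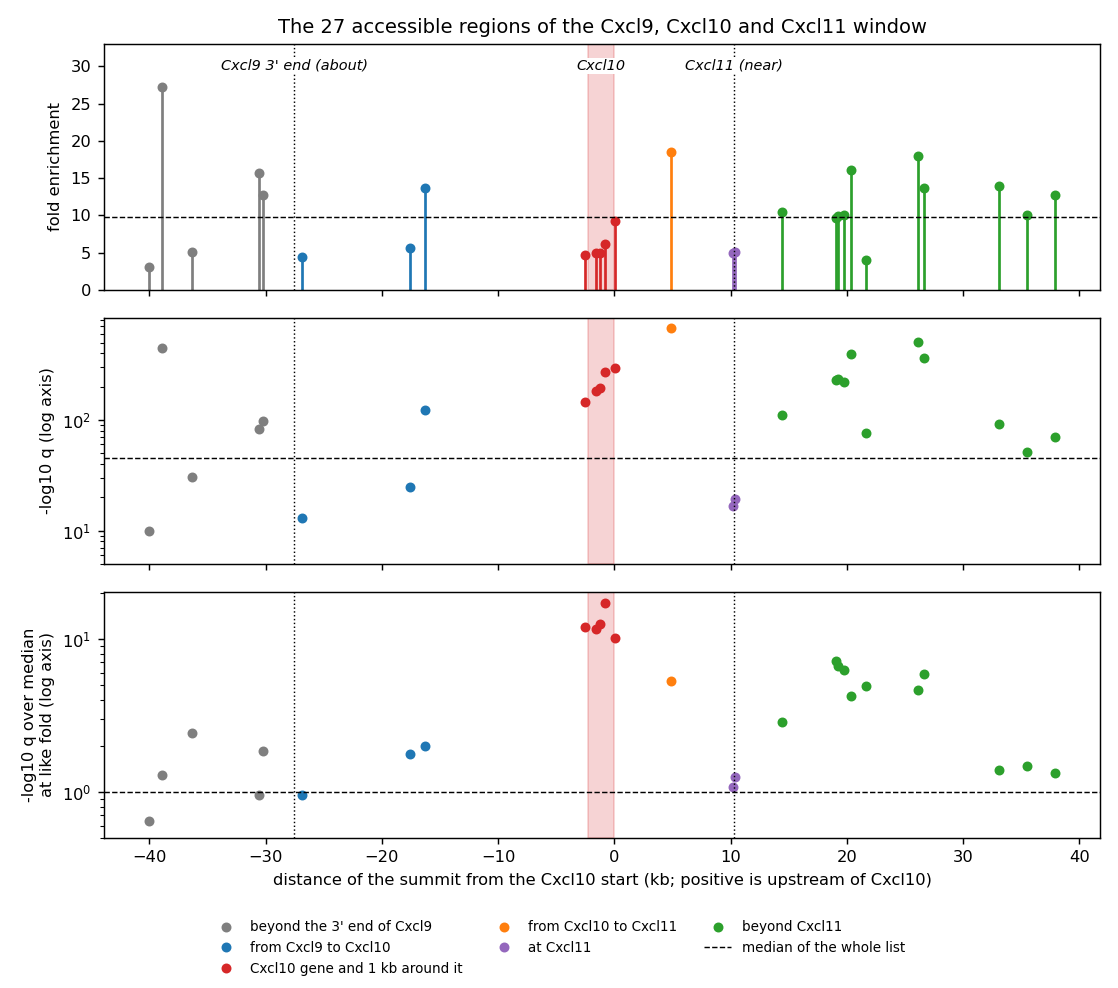
The 27 peaks by distance of the summit from the Cxcl10 start (horizontal, kb, positive upstream), with fold enrichment (top), −log10 q (middle, log axis) and −log10 q over the median of peaks of like fold (bottom, log axis); the dashed line is the median of the whole list and the shaded band is the Cxcl10 gene. The highest fold, 27.3, lies beyond Cxcl9, the highest −log10 q, 676, between Cxcl10 and Cxcl11, and the highest ratios, 10.1 to 17.2, at Cxcl10.

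Over all 27 peaks, the window was of ordinary fold and width and of high −log10 q. The median fold was 9.85 in the window, equal to that of the list at this precision, and 14 of the 27 peaks lay above it. The median width was 188 bp, against 196 bp in the list. The median −log10 q was 123, against 45.3 in the list, and 21 of 27 peaks exceeded the list's median. Only 1 peak, or 3.70%, had a fold of 20 or more, against 15.0% of the list, whereas 6 peaks, or 22.2%, had a fold below 5, against 10.4% of the list. Across peaks, which are not independent, Spearman's rho between fold and −log10 q was 0.587 over the 27 peaks, against 0.836 over the list. The 6 peaks of highest fold and the 6 of highest −log10 q had 4 peaks in common, and the Cxcl10 start peak ranked 16th by fold and 6th by −log10 q.

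The window was densely filled. Peaks covered 6976 bp of it, the median gap between neighbours was 1666 bp, against 5092 bp over the autosomes and X, and 80.8% of its 26 neighbouring pairs were less than 5000 bp apart, against 49.3%. Of 30210 windows of the same length, 90001 bp, laid end to end over the assembled chromosomes, 125 held at least 27 peaks, or 0.414%. The Wilson 95% interval was 0.347% to 0.493%, which treats windows as independent. All windows laid were counted, so this interval measures no sampling error. The median of these windows was 1 peak and 44.4% held none. On chromosome 5 alone, 7 of 1686 windows held as many, or 0.415%. With only peaks at or above the list's median −log10 q, the window kept 21 peaks and 24 of 30193 windows, or 0.0795%, held as many. These windows start at fixed positions, whereas the window described here was placed around named genes. The nearest peaks outside it were at 92427857 to 92427882, 22118 bp below its lower edge with a fold of 11.7, and at 92540572 to 92540700, 572 bp above its upper edge with a fold of 6.83.

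**Figure D4:**
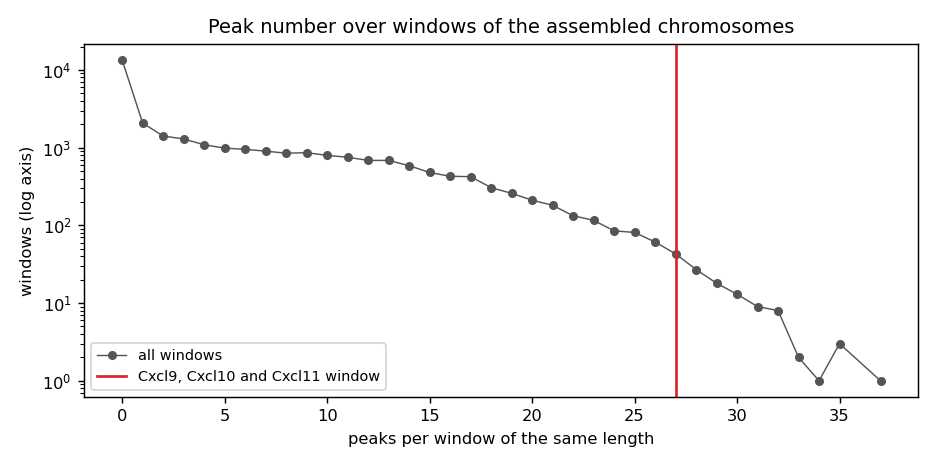
Number of windows of 90001 bp (vertical, log axis) by the number of peaks they hold (horizontal) over the assembled chromosomes; the red line is the chemokine window. It lies at 27 peaks, and 125 of the 30210 windows held as many or more.

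The scores of the list carry a trace of how many values each peak averages. A score that is a mean of whole numbers becomes whole when multiplied by the number of values averaged, so its smallest such multiplier divides that number. In the window, 2 peaks needed the multiplier 20, both beyond the 3′ end of Cxcl9: the peak of highest fold and the one at 92466133 to 92466302. That is 7.41% of the window, against 14.6% of the list. Since the series has 19 samples, such a score is not a plain mean of a single whole number per sample. Another 9 of the 27 peaks, or 33.3%, needed a multiplier that does not divide 20, against 23.6% of the list. Multipliers up to 20 were tried, so a peak needing a larger one would be in neither count. The Cxcl10 peaks needed 4 at the start, then 4, 7 and 1 through the gene body and 4 past the 3′ end. The Cxcl11 peak that covered 92507000 needed 3 and its touching neighbour 2. In the touching pair at 92515851 to 92516098, the narrower peak needed 7 and the wider one 16. How the means were formed, and which samples entered each, is not given by the list.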

How the data were processed

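The labels describe 19 ATAC-seq samples in 10 groups, assigned by title. The deposited file is a single consensus narrowPeak list in mm39 with no sample names. The submitters' processing notes name MACS2 2.2.7.1, deepTools 3.5.1, Picard 2.27.4 and STAR 2.7.9a. Any shift of reads, the calling threshold and the way the list was merged were each not given in the sources used here. Deposited columns read here were the score, the fold (ratio over local background) and −log10 q.

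Coordinates were read as counted from 1, since 0 summit offsets then reached the width of their peak, against 74 for a count from 0, and a summit is start plus offset. Gene positions in mm39 came with the definition of the window. Peaks within 1000 bp of Cxcl10 were taken as its set, and peaks within 500 bp of 92507000 as those at Cxcl11. No test was run, because peaks are not replicates and depth is unknown. Alternatives covered peak strength, merging, the summit, the coordinate base, width, window placement, flanks and bins. The rule for naming asked for full values of the 6 peaks of highest fold, the peak nearest each gene position and those inside Cxcl10. Others are given by fold and −log10 q, or by range and count. The members and lists were chosen with earlier results of these data known. The ratio to peaks of like fold, the multipliers and the second NF-kB pattern were chosen after seeing the data. The share of promoters with both the interferon-stimulated response element and AP-1 patterns was not planned. Scripts were tested on simulated data. Promoter peaks of other genes and of cell type markers were not analysed here, because the gene table belongs to GRCm38.p6, and protein sequences were not used here. The scripts ran in Python 3.11.15 with pandas 2.3.3, numpy 2.4.6, matplotlib 3.10.9 and scipy 1.17.1.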

Additional observations from a re-analysis of the deposited data

How the results depend on the processing

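Of 20 alternative values over 8 results, 17 stayed within the interval of the main value or within 1.5 times of it, and 3 moved. With only peaks at or above the list's median −log10 q, 21 peaks were left in the window and 0.0795% of windows held as many, against 0.414% for all peaks. The window kept 77.8% of its peaks there and the list 50.0%. Within 250 bp of the Cxcl10 start there was 1 peak, against 2 within 500 bp. The NF-kB pattern chosen after seeing the promoters gave 2 matches in Cxcl10, against 0 for the listed pattern. Some of the 17 could hardly move: placing peaks by summit or counting coordinates from 0 left 27 peaks in the window. Peaks shared with the 6 of highest fold were 6 by definition and 4 when ranked by −log10 q, which lies at the limit of 1.5 times. The median ratio of the Cxcl10 peaks was 12.6 to 13.4 over 4 alternatives chosen after seeing the data (other bins of fold, bins of fold and width, and chromosome 5 alone), and the lowest of the 5 peaks stood at percentile 99.3 or 99.4 in each. No paired analysis was possible because no value in the list belongs to a single sample. With the depth unknown, a stretch without a peak is not shown to be closed.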

Other observations

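Stretches like the Cxcl10 set were counted over the whole list, with limits set after the Cxcl10 values had been seen. A stretch was at least 5 successive peaks with gaps under 1000 bp and with −log10 q at least 10 times the median at like fold, a minimum just below the lowest Cxcl10 ratio of 10.1. The list held 867 peaks at or above that ratio and 2 such stretches. The first was the Cxcl10 set. The other lay on chromosome 11 from 69299446 to 69302742, with 5 peaks, a median fold of 6.99, a median −log10 q of 271 and a median ratio of 13.2. At a minimum ratio of 8 there were 3 stretches, at 5 there were 14 and at 3 there were 39, so the small number at 10 depends on that minimum.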
